A study of Homo sapiens with 3 samples.

Results

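The 10 genes described here encode kinases that act during cell division: the Aurora kinases AURKA, AURKB and AURKC, the polo-like kinases PLK1, PLK2, PLK3 and PLK4, and BUB1, BUB1B and TTK of the spindle checkpoint. They were chosen by symbol as a family of mitotic kinases, with no threshold on counts, among 58051 genes listed by Ensembl identifier. All 10 symbols had exactly 1 gene in GENCODE release 44 and in the deposited counts. The counts come from H9, an established human embryonic stem cell line of wild-type genotype, which received no treatment and was grown in Essential 8 Flex medium on vitronectin. Total RNA of 3 replicates was depleted of ribosomal RNA and sequenced. Nothing in the labels says whether the replicates were separate cultures, so the spread between them may be technical. There is 1 condition, and no difference between groups was tested. The libraries held 10390984, 12024802 and 8655155 counted reads in replicates 1, 2 and 3, of which 9714, 11386 and 8123 lay on the 10 kinase genes. This was between 0.0935% and 0.0947% of each library.

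Progress through mitosis is driven by phosphorylation. CDK1 with cyclin B starts the phase, and the Aurora and polo-like kinases then act at the centrosomes, the kinetochores and the midbody. BUB1, BUB1B and TTK belong to the spindle checkpoint, which holds back the anaphase promoting complex until every kinetochore is attached to microtubules. Transcripts of many such genes accumulate in G2 and M phase, and embryonic stem cells cycle fast with a short G1 phase. In RNA from whole cultures, the share of cells in mitosis and the amount of RNA per cell cannot be told apart.

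Many promoters of genes expressed in G2 and M phase carry a cell cycle genes homology region (CHR), a short element bound by the MuvB core of the DREAM complex. It was looked for here as TTTGAA, on both strands, and as its variant TTCGAA, which reads the same on both. The windows searched were those of RefSeq on GRCh38.p14, from 250 bp before to 50 bp after a start, which held 8 of the 10 genes. AURKA and TTK had no entry. BUB1B, PLK1 and PLK4 held TTTGAA and BUB1 held TTCGAA, whereas AURKB, AURKC, PLK2 and PLK3 held neither. Among 15345 protein-coding genes with a window, 15.9% held TTTGAA, 2.14% held TTCGAA and 17.5% held either. PLK4 has 3 windows and AURKB has 2, so that these genes had more sequence to match. What the 4 genes share in this window is the short match, TTTGAA or its variant, and the stretches around it are shown as context. Each is read along the coding strand, with the match in capitals, and PLK4 carries it on the opposite strand. The first base of the match lies at -29 from the start in PLK1, -23 in BUB1B, 2 in BUB1 and 39 in PLK4. The RefSeq starts of PLK1 and BUB1B lie inside the spans that GENCODE gives these genes.
PLK1 (plus strand, chr16:23678848-23678877): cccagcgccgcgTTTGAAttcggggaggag
BUB1B (plus strand, chr15:40161034-40161063): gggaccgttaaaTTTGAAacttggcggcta
BUB1 (minus strand, chr2:110678045-110678074): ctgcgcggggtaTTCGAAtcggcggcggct
PLK4 (plus strand, chr4:127880913-127880942): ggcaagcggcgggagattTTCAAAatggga
A match describes these letters and is not evidence of binding. The CCAAT box, searched as CCAAT on both strands, was found in AURKB, AURKC, BUB1, PLK1 and PLK4, against 42.5% of protein-coding genes. The GC box, searched as GGGCGG on both strands, was found in 6 of the 8 genes, all but BUB1 and BUB1B, against 65.1%. None of these matches overlapped a CHR match.

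Levels are given as TPM, computed from the counts and the summed length of all annotated exons of a gene, so that genes can be set against each other. Of the Aurora kinases, AURKB was the highest. AURKB, the catalytic subunit of the chromosomal passenger complex (ENSG00000178999, chr17:8204733-8210600, minus strand), had 1081, 1387 and 997 reads in replicates 1, 2 and 3. These are 185, 205 and 200.4 TPM, with a mean of 197 ± 10.1 TPM (SD, n = 3). AURKA, which matures centrosomes and builds the spindle poles (ENSG00000087586, chr20:56369389-56392337, minus strand), had 1185, 1344 and 890 reads. Its levels were 155, 152 and 137 TPM, with a mean of 148 ± 9.78 TPM (SD, n = 3), and no replicate of AURKA reached the lowest of AURKB. The ratio of AURKB to AURKA was 1.19, 1.35 and 1.46 in replicates 1, 2 and 3.

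AURKC, best known for taking the place of AURKB in meiotic cells (ENSG00000105146, chr19:57231009-57235548, plus strand), had only 6, 5 and 5 reads. Its levels were 1.32, 0.949 and 1.29 TPM, with a mean of 1.19 ± 0.208 TPM (SD, n = 3). The 16 reads in all have an exact 95% Poisson interval of 9.15 to 26.0 reads, which covers counting error only, as PCR copies are not independent molecules. AURKB was 140.0, 216 and 155 times as high as AURKC in replicates 1, 2 and 3, and 281 ± 66.1 times (SD, n = 3) with the longest transcript as length. With so few reads on AURKC, counting error alone is wide enough to hold the spread of this ratio.

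The polo-like kinases covered more than an order of magnitude. PLK1, which acts from mitotic entry to cytokinesis (ENSG00000166851, chr16:23677656-23690367, plus strand), had 1733, 2000 and 1599 reads. Its levels were 139.9, 139 and 151 TPM, with a mean of 143 ± 6.95 TPM (SD, n = 3). PLK4, the kinase that starts centriole duplication (ENSG00000142731, chr4:127880893-127899224, plus strand), had 578, 752 and 536 reads. Its levels of 49.6, 55.5 and 53.9 TPM had a mean of 53.0 ± 3.06 TPM (SD, n = 3). Levels of PLK1 were thus 2.82, 2.503 and 2.81 times those of PLK4, and 5.12 ± 0.340 times (SD, n = 3) with the length of a single representative transcript.

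PLK2 and PLK3 are polo-like kinases with roles outside M phase, and both are known as genes induced by serum or stress. PLK2 (ENSG00000145632, chr5:58453982-58460139, minus strand) had 133, 155 and 97 reads, or 10.99, 11.02 and 9.40 TPM. Its mean was 10.5 ± 0.926 TPM (SD, n = 3). PLK3 (ENSG00000173846, chr1:44800377-44805990, plus strand) had 45, 59 and 47 reads, or 5.20, 5.86 and 6.36 TPM. Its mean was 5.81 ± 0.586 TPM (SD, n = 3). PLK2 was above PLK3 in every replicate, by 2.12, 1.88 and 1.48 times. PLK1 was 13.8 ± 1.98 times as high as PLK2 and 24.8 ± 1.84 times as high as PLK3 (SD, n = 3), on the length of all exons. PLK5, a further member of the family outside the 10 genes, had 4, 10 and 6 reads and a mean of 0.633 ± 0.226 TPM (SD, n = 3).

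The 3 checkpoint genes had means between 95.4 and 165 TPM. BUB1B, which encodes BUBR1, a subunit of the mitotic checkpoint complex whose kinase domain is degenerate (ENSG00000156970, chr15:40161023-40221123, plus strand), had 2034, 2193 and 1572 reads. These are 175, 162 and 159 TPM, with a mean of 165 ± 8.59 TPM (SD, n = 3). TTK, also called MPS1, the kinase at the top of the checkpoint (ENSG00000112742, chr6:80003887-80042527, plus strand), had 1382, 1590 and 1082 reads. Its levels were 116, 115 and 106 TPM, with a mean of 112 ± 5.16 TPM (SD, n = 3). BUB1, which phosphorylates histone H2A at centromeres (ENSG00000169679, chr2:110637528-110678063, minus strand), had 1537, 1901 and 1298 reads. Its levels were 93.7, 99.6 and 92.8 TPM, with a mean of 95.4 ± 3.74 TPM (SD, n = 3). The ranges of the 3 genes over the replicates did not overlap. BUB1B was 1.74 ± 0.122 times as high as BUB1, and BUB1 was 0.849 ± 0.0359 times as high as TTK (SD, n = 3), on the length of all exons. With the longest transcript or a single representative transcript as length, BUB1B was 1.26 ± 0.0885 times as high as BUB1 (SD, n = 3). BUB1 was 1.16 ± 0.0489 times as high as TTK with the longest transcript and 0.922 ± 0.0389 times with the representative one (SD, n = 3).

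**Figure D1:**
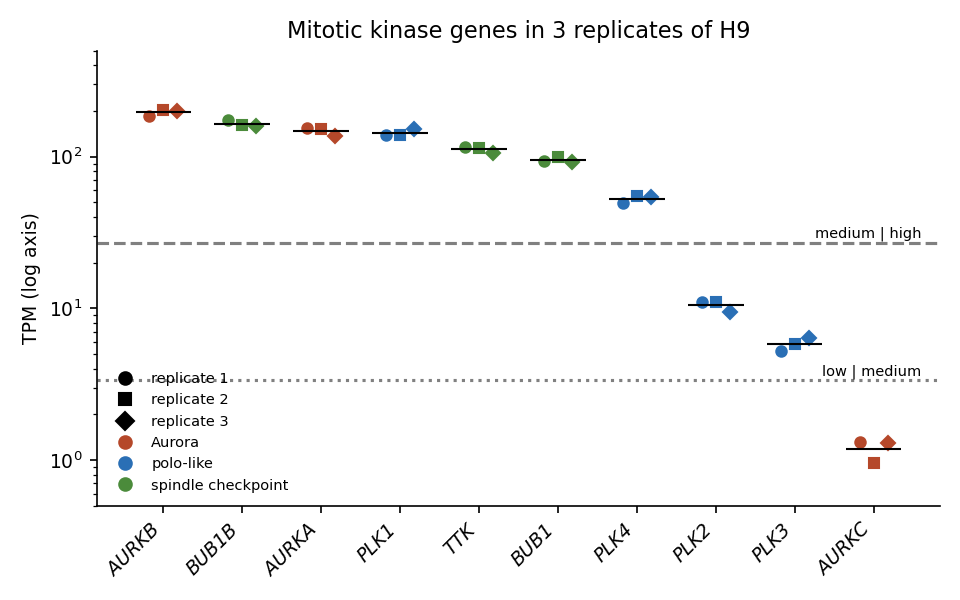
TPM (log axis) of the 10 kinase genes in each of 3 replicates, ordered by their mean, which is drawn as a bar. Colors mark the families, symbols the replicates, and the lines the boundaries of the expression classes at 3.35 and 27.0 TPM. A group of 7 genes lies between 49.6 and 205 TPM, apart from PLK2, PLK3 and AURKC.

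By mean TPM, the order was AURKB, BUB1B, AURKA, PLK1, TTK, BUB1, PLK4, PLK2, PLK3 and AURKC, and the highest was 165 times the lowest. Of the 9 pairs of neighbors in this order, 8 kept their order in every replicate and had means further apart than the larger SD. The exception was AURKA and PLK1, whose means differed by 4.68 TPM against an SD of 9.78 TPM. AURKA was higher in replicates 1 and 2, by 15.6 and 12.8 TPM, and lower in replicate 3, by 14.4 TPM.

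Protein-coding genes were sorted into the classes that the study's methods describe, nonexpressed below 0.01 TPM and 3 quantiles of the others, with boundaries at 3.35 and 27.0 TPM. Of the 10 kinases, 7 were in the high class, against 28.8% of all 19629 protein-coding genes. PLK2 and PLK3 were in the medium class and AURKC in the low class. Each of the 10 genes had the same class when every replicate was sorted alone. The median of the 10 means was 104 TPM, and that of all protein-coding genes was 7.10 TPM. AURKB was above 96.5% of protein-coding genes, BUB1B above 95.7%, AURKA above 95.02%, PLK1 above 94.8%, TTK above 92.8%, BUB1 above 91.3% and PLK4 above 83.5%. Near the middle of the distribution, PLK2 was above 55.3% and PLK3 above 47.6% of genes. AURKC was above 34.0%.

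**Figure D2:**
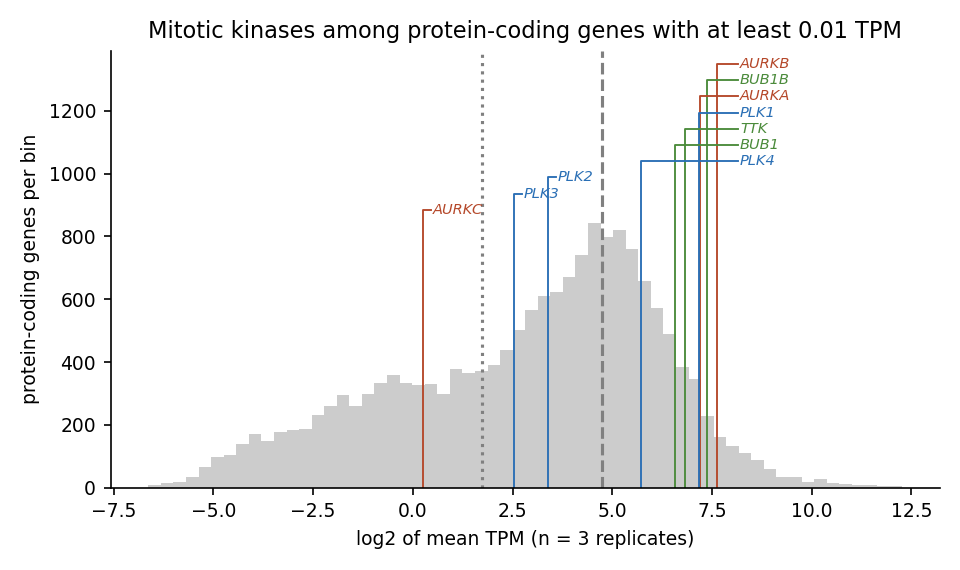
Histogram of log2 mean TPM for protein-coding genes with at least 0.01 TPM, with the 10 kinases as colored lines and the class boundaries of 3.35 and 27.0 TPM as dotted and dashed lines. AURKB, BUB1B, AURKA, PLK1, TTK and BUB1 lie on the right flank, PLK4 left of them, and AURKC left of the dotted line.

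Counts were divided by gene length, and the length that was chosen moved the upper part of the order. The exons of all annotated PLK1 transcripts cover 4760 bp, 2.20 times the 2160 bp of its MANE Select transcript, the 1 chosen as representative by Ensembl and RefSeq. For AURKB the values are 2241 and 1243 bp, and for PLK4 they are 4479 and 3838 bp. With MANE Select lengths, PLK1 was 197 ± 10.5 TPM and came after AURKB, at 221 ± 11.8 TPM (SD, n = 3). BUB1B was 125 ± 6.10 TPM and came after AURKA, at 133 ± 8.19 TPM (SD, n = 3), with means closer than the SD of AURKA. PLK4 was 38.6 ± 2.29 TPM (SD, n = 3), still in the high class. The ratio of TPM on MANE Select lengths to TPM on all exons was 1.37 for PLK1, and its median over 16976 protein-coding genes with reads was 0.849. The ratio of PLK1 to PLK4 was 5.33, 4.73 and 5.30 in replicates 1, 2 and 3 with MANE Select lengths, and that of PLK1 to PLK3 was 38.4 ± 2.85 (SD, n = 3). With the longest transcript, AURKB was 265 TPM, and BUB1, at 120.2 TPM, was above TTK, at 104 TPM. Without any correction for length, BUB1B was the highest at 187 CPM, followed by PLK1 at 173 CPM, BUB1 at 152 CPM and TTK at 130.4 CPM, and AURKB had 112 CPM. The last 4 places, from PLK4 to AURKC, were the same under each of these settings.

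**Figure D3:**
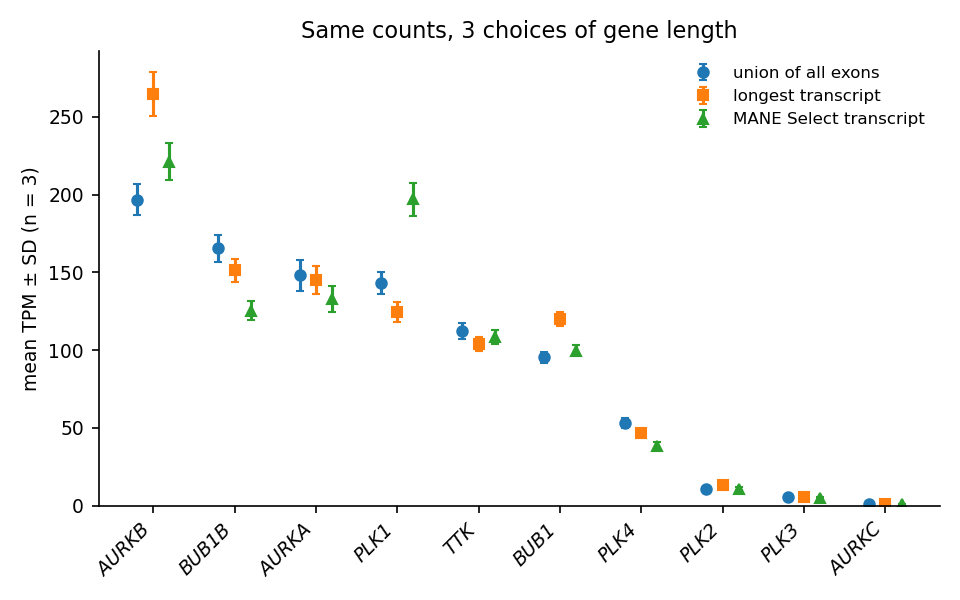
Mean TPM ± SD (n = 3) of each kinase gene, from the same counts divided by the length of all exons, of the longest transcript or of the MANE Select transcript. PLK1 is at 143, 124 and 197 TPM in that order, and AURKB is the highest gene with each length.

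Reads can be shared where genes overlap or have copies. The lncRNA gene ENSG00000261266 (chr16:23687049-23687689, minus strand) has 553 of its 641 bp of exons, which is 86.3%, within exons of PLK1 on the opposite strand. It had 206, 259 and 195 reads, or 131 ± 7.06 TPM (SD, n = 3), close to PLK1 itself, with a ratio to PLK1 of 0.883, 0.962 and 0.906 in replicates 1, 2 and 3. The use of strand in counting is not given in the sources used here, so reads in the overlap, which covers 11.6% of the exon length of PLK1, cannot be told apart. With MANE Select lengths, the ratio of the lncRNA to PLK1 was 0.416 ± 0.0184 (SD, n = 3). BUB1B shares 240 bp of exons with PAK6 on the same strand and 217 bp with the readthrough gene BUB1B-PAK6, together 10.2% of its length. BUB1B-PAK6 had no counted read in any replicate, where a count of 0 allows up to 3 counts in a library for counting error only. How reads in shared exons were assigned is not given in the sources used here. PAK6 had 113 reads in all against 5799 on BUB1B. With shared bases left out of every gene's length, BUB1B was 136 TPM and remained next to AURKB, at 145 TPM. The counts were unchanged in this setting, so it removed no shared read. ERN2 overlaps 58 bp of PLK1 and DYNLT4 overlaps 98 bp of PLK3, both on the opposite strand, with 225 and 6 reads in all.

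AURKA and CSTF1, a gene for a 3′ end processing factor, start 34 bp apart on opposite strands without sharing an exon. CSTF1 had 63.9 ± 1.84 TPM (SD, n = 3), 0.398, 0.433 and 0.467 times the level of AURKA. The start of BUB1 lies 142 bp from that of the lncRNA gene ENSG00000289202, which was not analysed here.

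Genes annotated as pseudogene copies had almost no reads counted on them. How reads that match several places were counted is not given in the sources used here. AURKAP1, a processed pseudogene of AURKA, aligned with the MANE Select transcript over 1213 bp at 94.9% identity and had 1, 0 and 0 reads. AURKAP2 aligned over 327 bp at 90.5% identity, and ENSG00000237810, a processed pseudogene, aligned with PLK1 over 606 bp at 90.8% identity. Both had no read, as had AURKBP1 and BUB1P1, which a symbol search added. A stretch like AURKA lies in an annotated transcript of RAB3GAP2, over 1538 bp at 94.7% identity. Whether it is the same sequence as AURKAP1 (chr1:220266706-220267917) was not examined. If it is, reads from this copy may have been counted on RAB3GAP2. How many of the 2340 reads on RAB3GAP2 fell there is not known from counts per gene. Between AURKB and AURKC, the closest pair of the family, identity was 78.9% over 815 bp, and the longest run that both share was 29 bp. The longest run shared by AURKA and AURKB was 26 bp, and between PLK1 and PLK3 it was 17 bp.

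Replicates differed little on these genes. The median coefficient of variation of TPM was 5.15% for the 7 kinases in the high class and 5.03% for all protein-coding genes in it. Of the 10 kinases, only AURKC had a highest replicate more than 25% above the lowest, at 1.39 times on its 16 reads. Among the 13223 protein-coding genes with a mean of at least 1 TPM, 27.6% exceeded this limit. For BUB1 the highest replicate was 1.07 times the lowest, for TTK and PLK1 1.09 times, and for BUB1B and AURKB 1.103 and 1.104 times. The chi-square of the counts against the library totals, which is near 1 per degree of freedom where counting is the only error, was 6.04 for PLK1, 3.92 for AURKB, 3.48 for BUB1B, 2.96 for AURKA, 2.57 for PLK4, 2.13 for BUB1 and 1.39 for TTK. It was 0.680 for PLK2, 0.592 for PLK3 and 0.187 for AURKC. Counting error alone exceeds 3.00 in 5% of cases, and PLK1, AURKB and BUB1B were above this limit. The share of all protein-coding genes above it was not computed, so nothing particular to these 3 genes can be read from it.

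Replicate 3 was set against the others by the GC content of exons. The 4 kinases with the most GC, AURKC at 55.4%, AURKB at 55.7%, PLK1 at 57.1% and PLK3 at 60.1%, were higher in replicate 3 than in the mean of replicates 1 and 2. Their log2 ratios were 0.19, 0.04, 0.12 and 0.20. AURKB was higher in replicate 2 than in replicate 3, at 205 and 200.4 TPM. For AURKC and PLK3, on 16 and 151 reads in all, and for PLK2, the chi-square per degree of freedom was below 1. Of the 6 with less GC, between 37.7% and 47.4%, 5 were lower in replicate 3, with log2 ratios from -0.23 for PLK2 and -0.17 for AURKA to -0.06 for BUB1, and PLK4 was at 0.04. Over all protein-coding genes of at least 1 TPM, the median of this ratio was -0.07 for GC contents from 40 to 45% and 0.07 from 55 to 60%. From 60 to 65% GC, the median was 0.22 for replicate 3 against the others, and it was -0.09 for replicate 1 and -0.13 for replicate 2 when each was set against its own 2 others. The order of AURKA and PLK1 turned in this replicate, and the part of GC content in it was not tested.

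**Figure D4:**
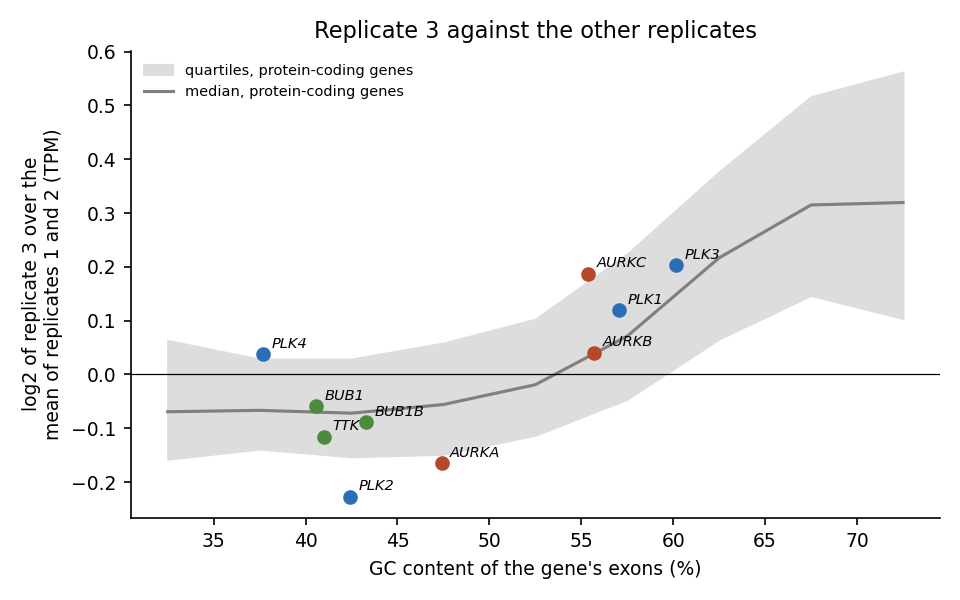
Log2 ratio of TPM in replicate 3 to the mean of replicates 1 and 2, against the GC content of a gene's exons, for the 10 kinases (points) and for protein-coding genes of at least 1 TPM in bins of 5% (line, median; band, quartiles). PLK1 and PLK3 lie above 0, at 0.12 and 0.20, and AURKA and PLK2 below it, at -0.17 and -0.23.

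Partners of the kinases were described from 8 lists of genes of mitosis, 77 genes in all. By mean TPM, 60 of these genes were in the high class, against 28.8% of all protein-coding genes, and the rest were in the medium class. The lists were made with earlier results of these data known. TPX2, which activates AURKA on spindle microtubules, was the highest of 7 genes around AURKA. It had 303 ± 11.5 TPM (SD, n = 3), or 2.00, 2.04 and 2.12 times AURKA. BORA, which helps AURKA to activate PLK1, was at 0.238, 0.218 and 0.237 times AURKA. With MANE Select lengths, TPX2 was at 1.48 ± 0.0441 times and BORA at 0.185 ± 0.00910 times AURKA (SD, n = 3). The lowest of these 7 genes was NEDD9, a scaffold protein, with 6.14 ± 0.403 TPM (SD, n = 3).

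AURKB works in a complex with INCENP, BIRC5 (survivin) and CDCA8 (borealin). BIRC5 had 193, 200.1 and 196 TPM, 1.04, 0.978 and 0.978 times the level of AURKB, and the means of both genes differed by less than the SD of AURKB. With MANE Select lengths, BIRC5 was at 0.822 ± 0.0309 times AURKB (SD, n = 3). INCENP was at 0.620 ± 0.0610 and CDCA8 at 0.656 ± 0.0685 times AURKB (SD, n = 3). With MANE Select lengths they were at 0.372 ± 0.0367 and 0.369 ± 0.0385 times (SD, n = 3). HASPIN, the kinase whose mark on histone H3 recruits the complex to centromeres, was at 0.258 ± 0.0224 times AURKB, or 0.143 ± 0.0124 times with MANE Select lengths (SD, n = 3). All 7 genes of this list were in the high class, from SGO2, a protector of centromeric cohesion, at 48.1 ± 1.57 TPM, to RCC2 at 1144 ± 54.2 TPM (SD, n = 3).

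Of 11 further checkpoint genes, 10 were in the high class, with a median of 73.8 TPM, and 3 were above the median of the 10 kinases. CDC20, the target of the checkpoint and activator of the anaphase promoting complex, was the highest at 353 ± 18.4 TPM (SD, n = 3), 2.14 ± 0.132 times BUB1B. MAD1L1, which anchors MAD2 at kinetochores, was the lowest at 14.4 ± 1.252 TPM (SD, n = 3). BUB3, which binds both BUB1 and BUBR1, was at 1.24 ± 0.0362 times BUB1 and 0.716 ± 0.0325 times BUB1B (SD, n = 3). With MANE Select lengths it was below BUB1, at 0.786 ± 0.0229 times (SD, n = 3). Of the 9 genes of the KMN network, the part of the kinetochore on which TTK and BUB1 act, 8 were high and none was above the median of the kinases. The 9 genes ranged from NSL1, in the medium class, at 12.6 ± 0.483 TPM to SPC24 at 74.6 ± 3.04 TPM (SD, n = 3). KNL1, the scaffold that TTK phosphorylates to bring in BUB1, was at 0.351 ± 0.0219 times BUB1, or 0.232 ± 0.0145 times with MANE Select lengths (SD, n = 3).

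Among 8 centriole genes, 4 were high and 4 medium, with a median of 23.4 TPM, below PLK4 itself. STIL, which binds and activates PLK4, had 50.9 ± 1.57 TPM and was the highest, at 1.01, 0.9504 and 0.928 times PLK4, and above PLK4 with MANE Select lengths, at 1.28 ± 0.0546 times (SD, n = 3). SASS6, which forms the cartwheel of the new centriole, was at 0.571 ± 0.0895 times PLK4, and CEP152, which brings PLK4 to the centriole, at 0.274 ± 0.00627 times (SD, n = 3). CEP63 was the lowest, at 3.50 ± 0.433 TPM (SD, n = 3). Of 11 other kinases of mitosis, 6 were high and 5 medium, with a median of 33.0 TPM. CDK1, the highest of them at 120.3 ± 7.19 TPM (SD, n = 3), was at 0.842, 0.925 and 0.758 times PLK1 (above it with the longest transcript as length, at 1.47 ± 0.146 times), and VRK1 was the lowest at 7.62 ± 0.432 TPM (SD, n = 3).

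Of 10 genes of the anaphase promoting complex and mitotic exit, 8 were high. UBE2C, the ubiquitin-conjugating enzyme of that complex, had 347 ± 2.05 TPM and ANAPC1, a subunit of it, 24.0 ± 1.42 TPM (SD, n = 3). Of 14 genes of the phosphatases that oppose these kinases and of their regulators, 12 were high and 2 medium. Among them were the PP2A inhibitors ENSA and ARPP19 at 213 ± 4.82 and 235 ± 6.39 TPM (SD, n = 3). The 14 genes ranged from PPP2R5B, in the medium class, at 6.08 ± 1.49 TPM to PPP1CC at 259.6 ± 6.36 TPM (SD, n = 3). Their median of 105 TPM was next to that of the 10 kinases.

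**Figure D5:**
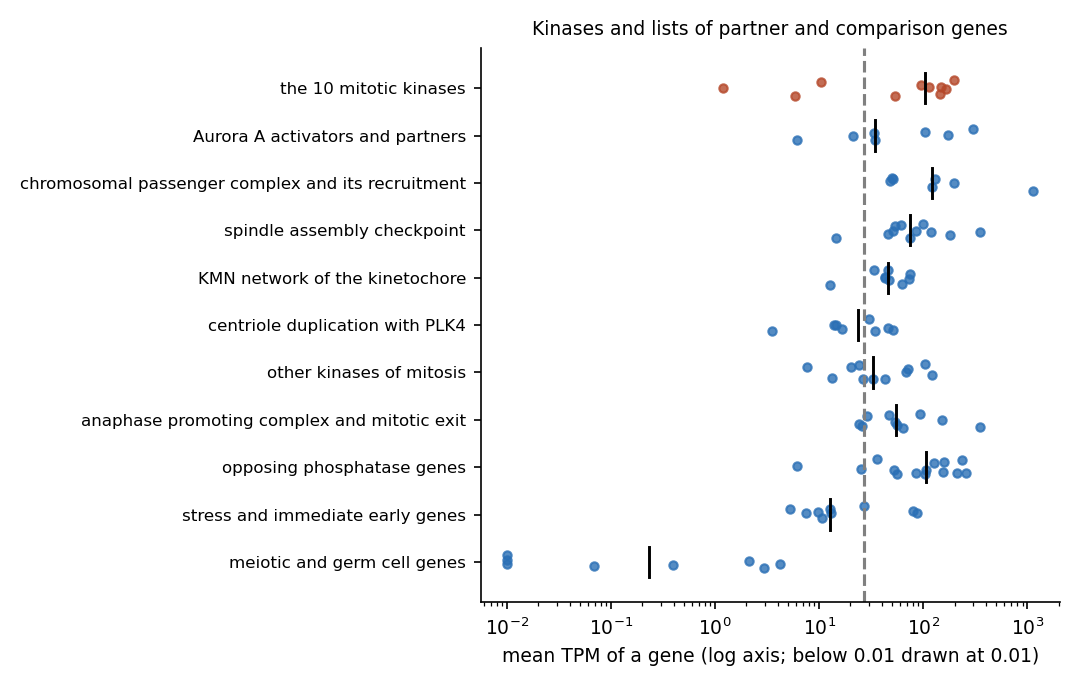
Mean TPM (log axis) of each gene in the group of 10 kinases and in 10 lists of partner and comparison genes, with the median of each as a black bar and the lower boundary of the high class, 27.0 TPM, as a dashed line. The median is 104 TPM for the kinases, 122 TPM for the chromosomal passenger list and 0.231 TPM for the meiotic and germ cell list.

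PLK2, PLK3 and AURKC were set beside genes of the kinds with which they are usually grouped. Of 9 stress and immediate early genes, 6 were in the medium class with PLK2 and PLK3 and 3 in the high class, with a median of 12.8 TPM. EGR1 was the lowest at 5.21 ± 1.89 TPM and IER2 the highest at 86.7 ± 2.93 TPM (SD, n = 3). Of 8 meiotic and germ cell genes, 4 were low like AURKC, 1 was medium and 3, STRA8, MOS and PRM1, had no read in any replicate. SYCP3, of the synaptonemal complex, was the highest at 4.18 ± 1.397 TPM (SD, n = 3).

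Markers were checked against the labelled cell type. All 7 markers of pluripotent stem cells were in the high class, from NANOG at 275 ± 24.7 TPM to LIN28A at 2576 ± 64.7 TPM (SD, n = 3), and so were the 4 markers of proliferation, from MKI67 at 138 ± 11.5 TPM to PCNA at 802 ± 36.4 TPM (SD, n = 3). The 4 neural markers summed to between 10.2 and 14.2 TPM, the 4 mesoderm markers to between 19.7 and 30.5 TPM and the 4 endoderm markers to between 9.63 and 13.9 TPM, with 1 medium gene in each list, TUBB3, MIXL1 and FOXA2, and none high. The trophoblast and amnion markers summed to between 60.4 and 74.2 TPM, with GABRP at 58.5, KRT7 at 6.70, TFAP2A at 0.397 and CGA at 0.0645 TPM. The fibroblast markers summed to between 178 and 195 TPM, with THY1 at 145, COL1A2 at 25.6, COL1A1 at 14.6 and DCN at 0.0985 TPM. Whether cells of these other kinds were present at all was not tested, nor was any part of them in the levels of the kinases.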

How the data were processed

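RNA-seq reads of 3 replicates of H9 cells were trimmed by the authors with Trim Galore 0.4.4 and aligned to GRCh38 with TopHat2 2.1.1, per the submitters' processing notes. The authors deposited whole-number read counts per gene, unnormalized. Transcript abundances were computed by the authors with Cufflinks 2.2.1 and were not used here, so the classes rest on TPM from the counts. How the deposited reads were assigned to genes for the counts, with which annotation and strand setting, is not given in the sources used here. Identifiers were joined to GENCODE 44 on the same build, and 56948 of 58051 matched. TPM was computed on the union of exons, and the other 1103 had none. Protein-coding genes were nonexpressed below 0.01 TPM and otherwise split into 3 quantiles. The highest and the lowest replicate were compared for genes with a mean of at least 1 TPM. A chance test between groups was not possible with 1 condition, and means, SDs and exact Poisson intervals at the 95% level are given instead.

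The kinases and all lists were chosen with earlier results of these data known. List genes named in the text were the highest and the lowest of each list, and others were named for a direct role beside a kinase after values had been seen. Copies were alignments of MANE Select transcripts with blastn 2.17.0 of at least 100 bp at 90% identity or more. Classes and folds were checked on simulated counts. R 4.3.3, edgeR 4.0.16 (TMM) and DESeq2 1.42.0 (size factors) served the alternatives, with Python 3.11.15, pandas 2.3.3 and scipy 1.17.1.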

Additional observations from a re-analysis of the deposited data

How the results depend on the processing

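The number of kinases in the high class was 7 under every alternative run except one, in which all genes and not just protein-coding genes were classified and it was 8. Neither TMM factors nor DESeq2 size factors changed the level of any kinase by more than its SD. The median of the 10 means, 104 TPM, was 112 TPM with the longest transcript as gene length, 76.4 TPM with exon bases not shared on the same strand, 110.8 CPM without length and 108 TPM with mitochondrial genes left out of the total, which raises every other TPM. With unshared exon bases, the kinases other than BUB1B kept their lengths, and their TPM fell as the total to which TPM is scaled rose. For the longest transcript the cause was not tested. The number of kinases whose highest replicate was more than 25% above the lowest was 1, and it became 7 at a fold of 1.1 and 0 at a fold of 1.5. It was 2 with counts thinned to 50% and 5 with counts thinned to 10%, where fewer reads widen the spread. With 1 replicate left out it lay between 0, without replicate 2, and 1, since AURKC alone had exceeded it. For all protein-coding genes of at least 1 TPM, the share was computed only at the 25% limit on the full counts, 27.6%. Their median ratio of the highest to the lowest replicate was 1.14, which is already above 1.1. Of the 10 kinases, 8 moved by more than their SD with the longest transcript (3 higher, 5 lower), 7 with the MANE Select transcript (3 higher, 4 lower) and 10 with unshared exon bases (all lower). Of 28 ratios between genes, added with other lengths after seeing the data, 7 moved by over 1.5 times with the longest transcript and 9 with the MANE Select transcript. Without replicate 1, PLK1 came before AURKA, at 145.1 against 144.3 TPM. Under alternatives chosen for these counts after seeing the data, the count of separated neighbors, 8, was between 7 and 9, and that of partner genes in the high class, 60, was between 52 and 73. No paired analysis was possible because a single group of replicates was sequenced.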
